A study of Mus musculus with 8 samples.

Results

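Imprinted genes are transcribed mainly from the copy inherited from 1 parent. A list of 41 mouse imprinted genes was followed here in the posterior part of Cdx2 null mutant and wild type embryos, with null and wild type RNA labelled in 2 dyes and hybridised together on Agilent arrays of the mouse genome. The members were the non-control probes whose gene name in the scanner files is on the list. They came to 84 of the 41174 probes on the array and covered 40 genes, since Rtl1 had no probe by name. Of these, 65 probes of 39 genes passed the limit on dim probes, among 21905 probes and 15488 genes in all. Zim1, a zinc finger gene of the Peg3 cluster, was not well above background on any array and has no value.

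The study compared 2 genotypes of the strain C57Bl6J/CBA at 2 stages, 4/5 and 7/8 somites. Tissue lay between the boundary of the last somite and the base of the allantois. RNA came from 20 embryos of each genotype and stage, which was taken to mean 4 pools. The labels mark arrays 1 and 2 of a stage as bio1 and arrays 3 and 4 as tech1. All 4 arrays of a stage were taken to carry the same pair of pools, which the labels do not state. On arrays 1 and 3 of a stage the null pool was labelled with Cy3, and on arrays 2 and 4 with Cy5. The sources used here do not say how the Cdx2 allele was made. Cdx2 itself, a caudal-type homeobox gene, read -1.23 at 4/5 and -1.55 at 7/8 somites as a log2 ratio of null over wild type. Whether its probe lies in a part of the gene changed in that allele is not given, so that value is no full check of the genotype labels. All 10 genes of a list of posterior embryo markers, among them T, Tbx6 and Msgn1, were above background in at least 1 genotype. By the test described below, 5 of the 10, Cdx2 among them, were lower in null embryos and 0 were higher. Of all genes, 4.36% were lower and 6.46% higher. The median log2 ratio of the 10 markers was -0.64 at 4/5 and -0.04 at 7/8 somites, so their levels were not equal in the genotypes.

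Imprinted genes lie in clusters, and a control region methylated in the egg or the sperm sets which parental copy of each gene is read. Many paternally expressed genes promote growth of the fetus and placenta, whereas several maternally expressed genes restrain it. Imprinting is often weaker or limited to some tissues at genes far from a control region. An array reads the sum of both parental copies, so none of the values below shows which copy was active. In pools of whole tissue, fewer cells of a type and less RNA per cell cannot be told apart.

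Neighbouring members of the Mest cluster moved in opposite directions, and the start windows of these genes are shown for that reason, with the window of Asb4, the member that rose most. Each is 300 bases around a RefSeq start site in assembly GRCm38.p6, printed 5' to 3' on the strand of the gene. Capitals mark TGCCGC or its reverse complement GCGGCA, the letters read by ZFP57, a zinc finger protein that keeps imprints methylated.
Mest, chr6:30737800-30738099, plus strand: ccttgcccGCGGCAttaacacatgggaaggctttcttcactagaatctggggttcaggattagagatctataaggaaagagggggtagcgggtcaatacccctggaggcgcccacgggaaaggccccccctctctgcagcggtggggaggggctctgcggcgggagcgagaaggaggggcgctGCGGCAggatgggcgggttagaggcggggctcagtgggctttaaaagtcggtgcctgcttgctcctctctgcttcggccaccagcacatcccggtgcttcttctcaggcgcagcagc
Copg2, chr6:30896745-30897044, minus strand: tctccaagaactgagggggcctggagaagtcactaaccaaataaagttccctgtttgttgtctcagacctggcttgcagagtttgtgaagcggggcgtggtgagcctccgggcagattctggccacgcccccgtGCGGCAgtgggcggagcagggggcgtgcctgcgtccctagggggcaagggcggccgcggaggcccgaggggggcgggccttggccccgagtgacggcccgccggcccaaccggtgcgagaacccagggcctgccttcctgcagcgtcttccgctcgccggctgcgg
Asb4, chr6:5383136-5383435, plus strand: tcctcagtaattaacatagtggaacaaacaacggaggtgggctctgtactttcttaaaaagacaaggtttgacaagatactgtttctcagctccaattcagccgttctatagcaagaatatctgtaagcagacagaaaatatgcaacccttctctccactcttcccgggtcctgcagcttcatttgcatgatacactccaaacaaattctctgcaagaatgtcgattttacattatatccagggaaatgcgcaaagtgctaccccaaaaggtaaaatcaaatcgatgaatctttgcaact
These letters occurred 2 times in the Mest window, 1 time in the Copg2 window and 0 times in the Asb4 window. Mest has a start further upstream, chr6:30733256-30733555, whose window held 0 matches. RefSeq windows were found by symbol for 32 of the 41 members, 51 windows in all. TGCCGC on either strand was in 13 of the 51 windows (25.5%, 12 genes), and in 3813 of 32851 windows of all genes (11.6%). The 13 include overlapping Mest windows that start at 30737800 and 30737803, so they are not all separate. The part of base content in these shares was not tested. TTTAT, the core letters of the Cdx binding motif, was in 21 of the 51 windows (41.2%), against 40% of all windows. The motifs share no overlap by their letters. A match describes the letters of a window and shows no bound factor.

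The probes of the noncoding RNAs are shown because the stage pattern of the list rests in part on them and because the pair for Rian, host of small nucleolar RNAs, gave different readings. Each probe is 60 bases long, in lower case throughout, with positions on build mm9 as the files give them.
Rian, brighter probe, chr12:110898804-110898863, plus strand: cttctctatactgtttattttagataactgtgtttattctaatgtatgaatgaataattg
Rian, dimmer probe, chr12:110890293-110890352, plus strand: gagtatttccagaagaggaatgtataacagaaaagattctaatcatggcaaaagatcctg
Meg3, brightest probe, spanning chr12:110787974-110796459, plus strand: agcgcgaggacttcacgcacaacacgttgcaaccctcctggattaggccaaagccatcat
H19, brighter probe, chr7:149761769-149761828, minus strand: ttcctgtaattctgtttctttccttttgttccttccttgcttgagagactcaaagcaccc
The share of G and C was 23.3% in the brighter and 35% in the dimmer Rian probe, 55% in the Meg3 probe and 41.7% in the H19 probe.

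Across both stages, 6 of the 39 measured members were higher in null embryos (15.4%), where 6.46% of all genes measured were called higher. Another 3 were lower (7.69%), where 4.36% of all genes were called lower. One of these was Snrpn, whose direction depended on the dye, and without it 2 lower members remain (5.13% of 39), near the share of all genes. The higher members were Asb4, Mest, Dcn, Grb10, Igf2 and Sgce, and the lower ones were Copg2, Magel2 and Snrpn. The call of Grb10 was that of its brightest probe alone, and with the mean of its probes (0.08) it was not called. A member was called by limma on its 2 stage means, with an adjusted p of at most 0.05 over all 15488 genes. That p draws mostly on a standard deviation estimated from all genes (a prior of 19 degrees of freedom against 1 from the gene itself). A stage was taken to have no second pool of a genotype. The median log2 ratio over both stages was 0.02 for the members and -0.01 for all genes. Without array 2 of 4/5 somites 5 members were called. Without array 2 or array 4 of 7/8 somites 4 were called.

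**Figure D1:**
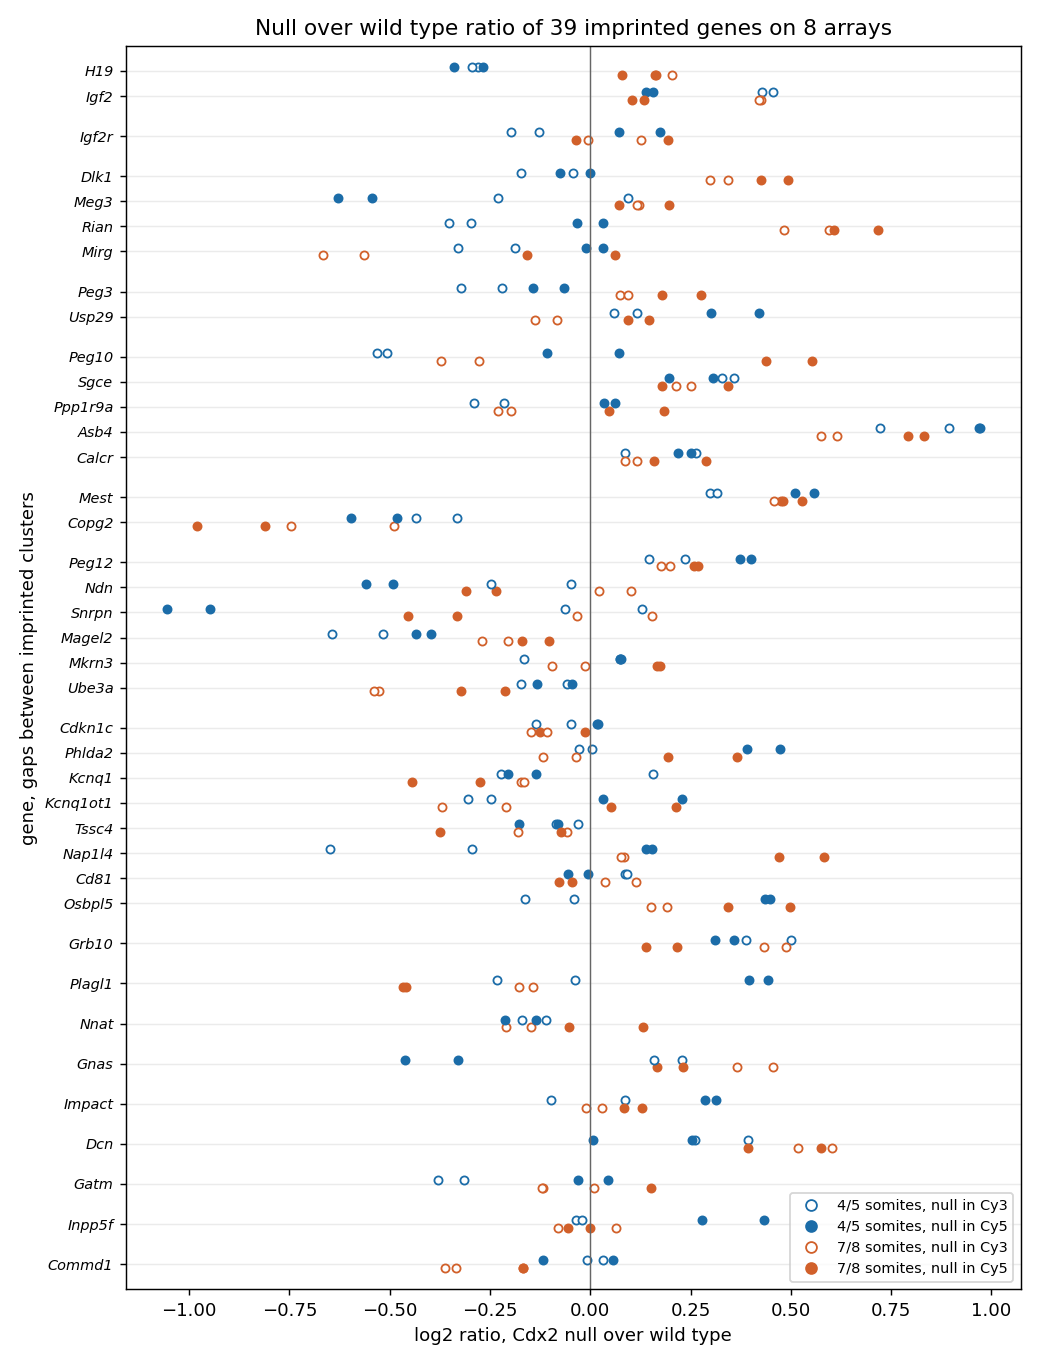
Log2 ratio of null over wild type (x axis) of each measured imprinted gene (y axis, grouped by cluster) on each of the 8 arrays, with colour for stage and open or filled points for the dye of the null pool. Asb4, Mest, Grb10, Igf2, Sgce and Dcn lie above 0 on 8 of 8 arrays, Copg2 and Magel2 lie below 0 on 8 of 8, and the points of Snrpn split by dye.

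Asb4, a maternally expressed gene for an ankyrin repeat and SOCS box protein, had the largest ratio of the list. At 4/5 somites its log2 ratios on arrays 1 to 4 were 0.89, 0.97, 0.72 and 0.97. The 4 values at 7/8 somites were 0.61, 0.79, 0.57 and 0.83. All 8 values were above 0 and the null channel lay above the wild type channel without overlap at both stages. The mean over stages was 0.80 ± 0.09 (SE), a 1.74-fold rise (limma, adjusted p = 1.94e-06). Between 4/5 and 7/8 somites the null level went from 10.92 to 11.06 on the log2 intensity scale, and the wild type level from 10.03 to 10.36. A dimmer Asb4 probe read 0.33 over both stages (limma over all probes, adjusted p = 0.021), but wild type was well above background there on 0 of 4 arrays at 4/5 and 1 of 4 at 7/8 somites. With a size rule of at least 1.5-fold on 4 of 4 arrays, Asb4 was the 1 member higher at 4/5 somites, where 1.34% of all genes were higher. No member was lower by that rule at 4/5 somites, where 0.981% of all genes were.

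Sgce, a paternally expressed gene of the same chromosome 6 cluster, encodes a sarcoglycan of the cell membrane. Its ratios on arrays 1 to 4 were 0.33, 0.30, 0.36 and 0.20 at 4/5 somites. They were 0.21, 0.34, 0.25 and 0.18 at 7/8 somites. The 8 values were all above 0 and close together, with a mean of 0.27 ± 0.08 (SE, limma, adjusted p = 0.0423). This call was the least secure of the 6, since it was lost in 15 of 20 other settings, among them leaving out any 1 array but array 1 of 7/8 somites (adjusted p = 0.0514 to 0.138). The dimmer Sgce probe read 0.31 (limma over all probes, adjusted p = 0.0337).

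The remaining members of that cluster did not pass the test. Calcr, the calcitonin receptor, read 0.18 and was above 0 on 8 of 8 arrays, with wild type well above background on 3 of 4 arrays at 4/5 and 2 of 4 at 7/8 somites. Ppp1r9a, which encodes the actin-binding neurabin, read -0.08 on its brightest probe and 0.26 on a dimmer one (adjusted p = 0.0696 over all probes). Peg10, a retrotransposon-derived gene needed in the placenta, read -0.09 and was dim, with null at 4/5 and wild type at 7/8 somites well above background on 2 of 4 arrays. On Peg10 the dye orders differed by 0.50 at 4/5 and 0.82 at 7/8 somites, more than its mean.

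Mest, a paternally expressed gene for a hydrolase-like protein of the mesoderm, rose in null embryos at both stages. Its ratios on arrays 1 to 4 were 0.30, 0.56, 0.32 and 0.51 at 4/5 somites. They were 0.48, 0.48, 0.46 and 0.53 at 7/8 somites. Every array was above 0, and the 4 values at 7/8 somites spanned less than those at 4/5. The mean was 0.45 ± 0.09 (SE), or 1.37-fold (limma, adjusted p = 0.000928). The level of Mest was 14.79 in wild type and 15.21 in null embryos at 4/5 somites, and 14.99 and 15.47 at 7/8 somites.

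Copg2, the maternally favoured neighbour of Mest that encodes a coatomer subunit of vesicle coats, fell. Its ratios on arrays 1 to 4 were -0.43, -0.60, -0.33 and -0.48 at 4/5 somites. Those at 7/8 somites were -0.75, -0.98, -0.49 and -0.81. All 8 values were below 0, and the null and wild type channels did not overlap at either stage. The mean was -0.61 ± 0.09 (SE), or 1.52-fold lower (limma, adjusted p = 8.35e-05). By the 1.5-fold rule it was the 1 member lower at 7/8 somites, where 1.12% of all genes were lower. A second probe read -0.64 but shares 37 bases with the first, so it is not a separate reading. The probe used for Copg2 (chr6:30698491-30698550, minus strand, mm9) lies 152 bases from that of Mest (chr6:30698279-30698338, plus strand). The 1 upstream Copg2 probe was dim in both genotypes. Asb4, Mest and Copg2 kept their calls in 20 of 20 other settings, with means of 0.56 to 0.89, 0.39 to 0.52 and -0.86 to -0.47.

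Igf2 is a paternally expressed growth factor gene of the fetus, and H19 is the maternally expressed noncoding RNA of its domain. The Igf2 ratios on arrays 1 to 4 were 0.43, 0.16, 0.46 and 0.14 at 4/5 somites. For 7/8 somites they were 0.43, 0.10, 0.42 and 0.13. All were above 0, but arrays with the null pool in Cy3 read higher than those with it in Cy5 at both stages (gaps of -0.29 and -0.31, Cy5 minus Cy3). The mean was 0.28 ± 0.08 (SE, limma, adjusted p = 0.034), and 14 of 20 other settings ended the call. Among these was leaving out any 1 array but array 4 of 4/5 somites (adjusted p = 0.0656 to 0.101). A second Igf2 probe read 0.17 (adjusted p = 0.267 over all probes). Igf2 was also higher at the later stage, by 0.53 in wild type and 0.51 in null embryos.

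H19 did not pass the test over both stages, and its ratio changed sign between them. On arrays 1 to 4 it was -0.28, -0.34, -0.30 and -0.27 at 4/5 somites. It was 0.20, 0.08, 0.16 and 0.16 at 7/8 somites. The stages did not overlap. The second H19 probe read -0.35 and 0.10, with values below 0 on 2 of the 4 arrays at 7/8 somites. Igf2r, the maternally expressed receptor that clears IGF2 into lysosomes, read 0.02.

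Grb10 is a maternally expressed adaptor gene that restrains insulin and IGF receptor signalling. Its brightest probe gave ratios of 0.39, 0.31, 0.50 and 0.36 on arrays 1 to 4 at 4/5 somites. The ratios at 7/8 somites were 0.43, 0.14, 0.49 and 0.22. All 8 were above 0, with a mean of 0.35 ± 0.09 (SE), or 1.28-fold (limma, adjusted p = 0.00772). The other probes of the gene did not follow: one, chr11:11833580-11834228 on mm9, read -0.19 and was below 0 on all 8 arrays, and another read 0.07. The mean of all Grb10 probes was 0.08 (limma, adjusted p = 0.654), so the call is that of the brightest probe (chr11:11830965-11831024, minus strand) alone.

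Dcn, which encodes decorin, a small proteoglycan of the extracellular matrix, and is maternally expressed mainly in placenta, was also called higher. Its ratios on arrays 1 to 4 were 0.39, 0.01, 0.26 and 0.25 at 4/5 somites. They were 0.52, 0.58, 0.60 and 0.39 at 7/8 somites. All were above 0, although array 2 of 4/5 somites was close to it. The mean was 0.38 ± 0.09 (SE), or 1.30-fold (limma, adjusted p = 0.00827). This probe was dim, and wild type was well above background on 2 of 4 arrays at 7/8 somites. With the scanner's processed signals the mean of Dcn was 0.96. Without array 2 or array 4 of 7/8 somites the adjusted p was 0.0761 and 0.0541, so either array ended the call.

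The cluster deleted in Prader-Willi and Angelman syndromes had a median log2 ratio of -0.24 over 6 measured genes (-0.15 with median centring). Magel2 and Snrpn were called lower there, but the direction of Snrpn was not settled, and without it the median of the other 5 genes was -0.22. Magel2, a paternally expressed MAGE-family gene, had ratios of -0.64, -0.44, -0.52 and -0.40 on arrays 1 to 4 at 4/5 somites. At 7/8 somites they were -0.21, -0.17, -0.27 and -0.10. All 8 values lay below 0 and the stages did not overlap, with the larger deficit at 4/5 somites. The mean was -0.34 ± 0.09 (SE), or 1.27-fold lower (limma, adjusted p = 0.0165). Magel2 lost its call without array 2 or 3 of 4/5 or array 2 or 4 of 7/8 somites (adjusted p = 0.0513 to 0.0996).

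Snrpn, a paternally expressed gene for a protein of small nuclear ribonucleoproteins, depended on the dye. Its ratios on arrays 1 to 4 were -0.06, -1.06, 0.13 and -0.95 at 4/5 somites. They were 0.15, -0.45, -0.03 and -0.33 at 7/8 somites. Only the arrays with the null pool in Cy5 were clearly below 0, and the dye orders differed by -1.04 and -0.45. The mean of -0.33 ± 0.09 (SE, limma, adjusted p = 0.0237) became 0.047 with the null pool in Cy3 alone, so no direction of Snrpn is settled by these arrays. Without array 2 or 4 of either stage the adjusted p was 0.112 to 0.23.

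The other 4 genes of that cluster did not pass the test. Peg12, a Frat-family gene, read 0.26 and was above 0 on 8 of 8 arrays (limma, adjusted p = 0.0571). Ndn, which encodes the growth suppressor necdin, read -0.22, and Mkrn3, a RING finger gene, read 0.04. Ube3a, the ubiquitin ligase gene imprinted mainly in neurons, read -0.25 on its brightest probe and was below 0 on 8 of 8 arrays. Its other probes read -0.19 and 0.02.

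**Figure D2:**
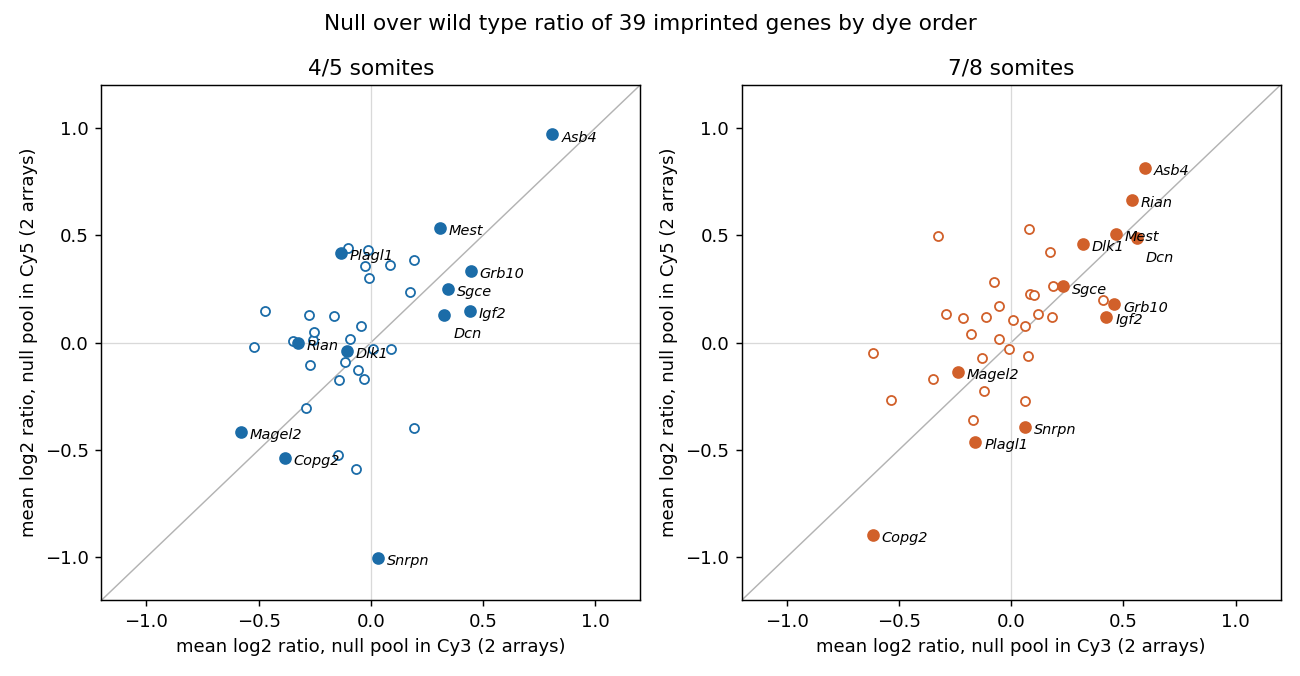
Mean log2 ratio of null over wild type with the null pool in Cy3 (x axis, 2 arrays) against Cy5 (y axis, 2 arrays) for 39 imprinted genes at each stage, filled and named where the gene is described in full. Asb4, Mest, Copg2 and Magel2 keep their sign in both dye orders at both stages, whereas Snrpn reads 0.03 in Cy3 and is the lowest point in Cy5 at 4/5 somites.

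Dye order moved many small ratios. The signs of the dye orders were opposite for 17 of 39 members at 4/5 and 11 of 39 at 7/8 somites, with a median gap of 0.23 and 0.19 in size. Over the 8 arrays, 8 members were always above 0, 4 were always below 0 and 27 had both signs. Of 20 members with at least 2 measured probes, the probes' means shared a sign in 11. All probes were called in 2 of them (Asb4 and Copg2), some in 5 and none in 13. Among the 5 was Commd1, a copper metabolism gene, whose brightest probe read -0.13 and of which a dimmer probe read -0.45 and was below 0 on 8 of 8 arrays (limma over all probes, adjusted p = 0.00314).

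In the Dlk1-Dio3 cluster on chromosome 12, 3 of the 4 measured members read higher at 7/8 than at 4/5 somites. The 4 members had a median log2 ratio of -0.14 at 4/5 and 0.26 at 7/8 somites, where those of all genes were -0.00018 and -0.0045. Dio3, at the far end of the cluster and not on the list of members, went the other way, with -0.53 at 4/5 and -1.2 at 7/8 somites. The order of the members' medians was the same with the scanner's processed signals (-0.24 and 0.25) and with median centring (-0.12 and 0.38). Rian, a maternally expressed noncoding RNA, had ratios of -0.35, 0.03, -0.30 and -0.03 on arrays 1 to 4 at 4/5 somites. At 7/8 somites they were 0.48, 0.72, 0.60 and 0.61. The later values were all above the earlier ones, 0.76 apart on average. By the 1.5-fold rule Rian was higher at 7/8 somites with Asb4, so 2 of 39 members were (5.13%), where 1.49% of all genes were higher.

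Rian was also the 1 member whose ratio was 1.5-fold higher at 7/8 than at 4/5 somites without overlap, where 0.6% of all genes did. No member's ratio was lower at 7/8 by that rule, where 0.407% of all genes were. The wild type level of Rian was 8.97 at 4/5 and 8.93 at 7/8 somites, and the null level went from 8.81 to 9.53. The dimmer Rian probe printed above read 0.04 at 4/5 and -0.14 at 7/8 somites and was well above background on 2 of 4 arrays of each genotype at 7/8. The 2 probes of Rian thus gave different results, and with their mean the stage difference no longer passed the rule. With median centring in place of loess Rian read -0.14 and 0.74, a difference of 0.88, which missed the rule because arrays of the stages overlapped.

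Dlk1, a paternally expressed transmembrane protein related to Notch ligands, read -0.04, -0.0013, -0.17 and -0.07 on arrays 1 to 4 at 4/5 somites. At 7/8 somites it read 0.34, 0.49, 0.30 and 0.43. Null and wild type levels overlapped at 4/5 and were apart at 7/8 somites, 12.95 against 12.56. A second Dlk1 probe showed the same order, with -0.39 at 4/5 and 0.26 at 7/8 somites. Meg3, the maternally expressed noncoding RNA next to Dlk1, read -0.33 and 0.13 on its brightest probe, -0.21 and 0.11 on the second and -0.18 and 0.04 on the third. The second probe was well above background on 2 of 4 arrays in 3 of the 4 pools, and the third on 2 of 4 in null embryos at 4/5 somites. The brightest Meg3 probe depended on the dye at 4/5 somites, with -0.07 for null in Cy3 and -0.59 in Cy5. Mirg, a noncoding host of microRNAs, went the other way by its means, with -0.12 and -0.33. At 7/8 somites Mirg read -0.61 with the null pool in Cy3 and -0.05 in Cy5, so its stage order is not settled.

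**Figure D3:**
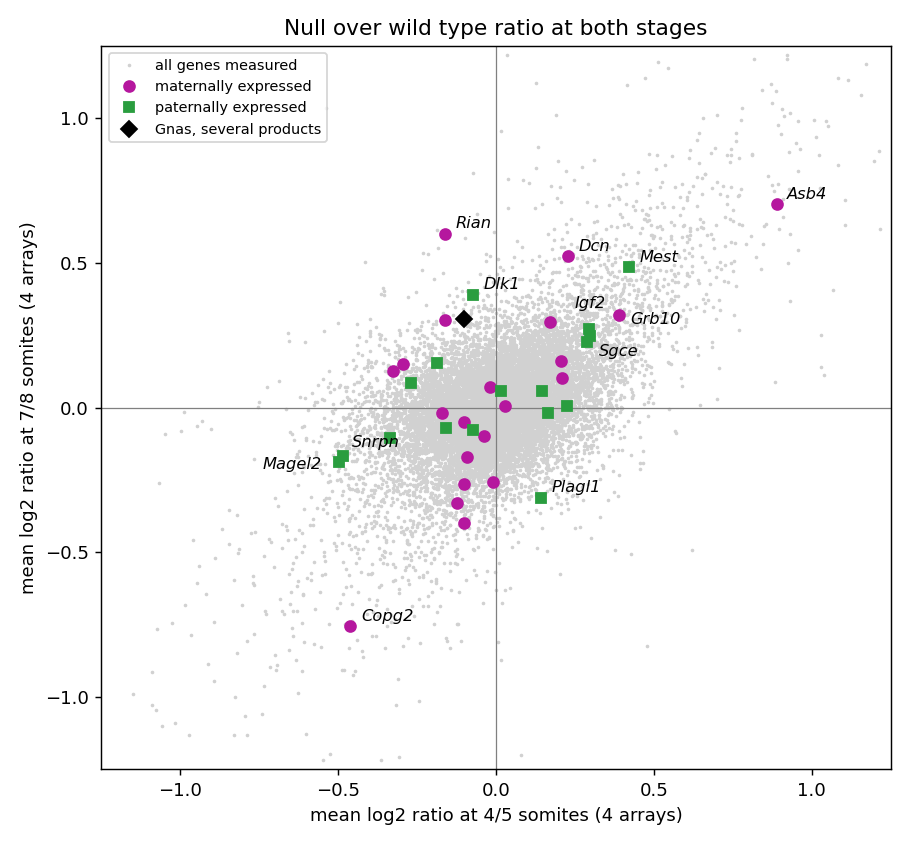
Mean log2 ratio of null over wild type at 4/5 somites (x axis) against 7/8 somites (y axis) for 15488 genes (grey, 42 of them beyond the axes) and for the imprinted genes by the parental copy expressed. Rian and Dlk1 sit above the horizontal line and left of the vertical one, and Asb4 and Copg2 sit at opposite ends of the diagonal.

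Further counts describe the change of sign. The ratio was below 0 on 4 of 4 arrays at 4/5 and above 0 on 4 of 4 at 7/8 somites in Dlk1, H19 and Peg3, 3 of 39 members (7.69%), where 2.1% of all genes did this. No member went the opposite way on all arrays, where 1.75% of all genes did. By stage means, 9 members (23.1%) were below 0 and then above it, against 17.5% of all genes, and 2 (5.13%) were above and then below it, against 18.8%. The 9 were Dlk1, Gnas, H19, Igf2r, Meg3, Nap1l4, Peg10, Peg3 and Rian. Some of these rest on values near 0 or on dye order. Igf2r went from -0.02 to 0.07 and was above 0 on 2 of 4 arrays at each stage. With the null pool in Cy3 and in Cy5, Gnas read 0.19 and -0.40 at 4/5 somites, and Nap1l4 read -0.47 and 0.15. Meg3 read -0.07 and -0.59 at that stage, with array 1 above 0. Peg10 read -0.32 and 0.50 in these dye orders at 7/8 somites.

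Peg3, a paternally expressed zinc finger gene, read -0.22, -0.07, -0.32 and -0.14 on arrays 1 to 4 at 4/5 somites. It read 0.07, 0.18, 0.09 and 0.28 at 7/8 somites. The arrays of the stages did not overlap. A second Peg3 probe read -0.17 and 0.29, but was above 0 on array 4 of 4/5 somites (0.04). Usp29, a protease gene that shares its start region, read 0.22 and 0.00.

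Between the stages of wild type embryos, Plagl1 was the 1 member higher by 1.5-fold at 7/8 somites without overlap, where 0.717% of all genes were. None was lower, where 0.801% of all genes were. Plagl1 is a paternally expressed zinc finger transcription factor gene. Its wild type level was 9.68 ± 0.20 at 4/5 and 10.65 ± 0.14 at 7/8 somites (SD over 4 arrays of 1 pool), and its null level 9.82 ± 0.14 and 10.34 ± 0.06. On arrays 1 to 4 the null over wild type ratio of Plagl1 was -0.23, 0.40, -0.04 and 0.44 at 4/5 and -0.18, -0.47, -0.14 and -0.46 at 7/8 somites. At 4/5 somites the ratio split by dye, and at 7/8 all 4 arrays were below 0.

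Between the stages of null embryos, Dlk1 and Rian were higher by the same rule (5.13% of 39), where 0.904% of all genes were. No member was lower, where 0.93% of all genes were. The stage change was 0.66 for Dlk1 and 0.72 for Rian in null embryos, against 0.20 and -0.05 in wild type.

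**Figure D4:**
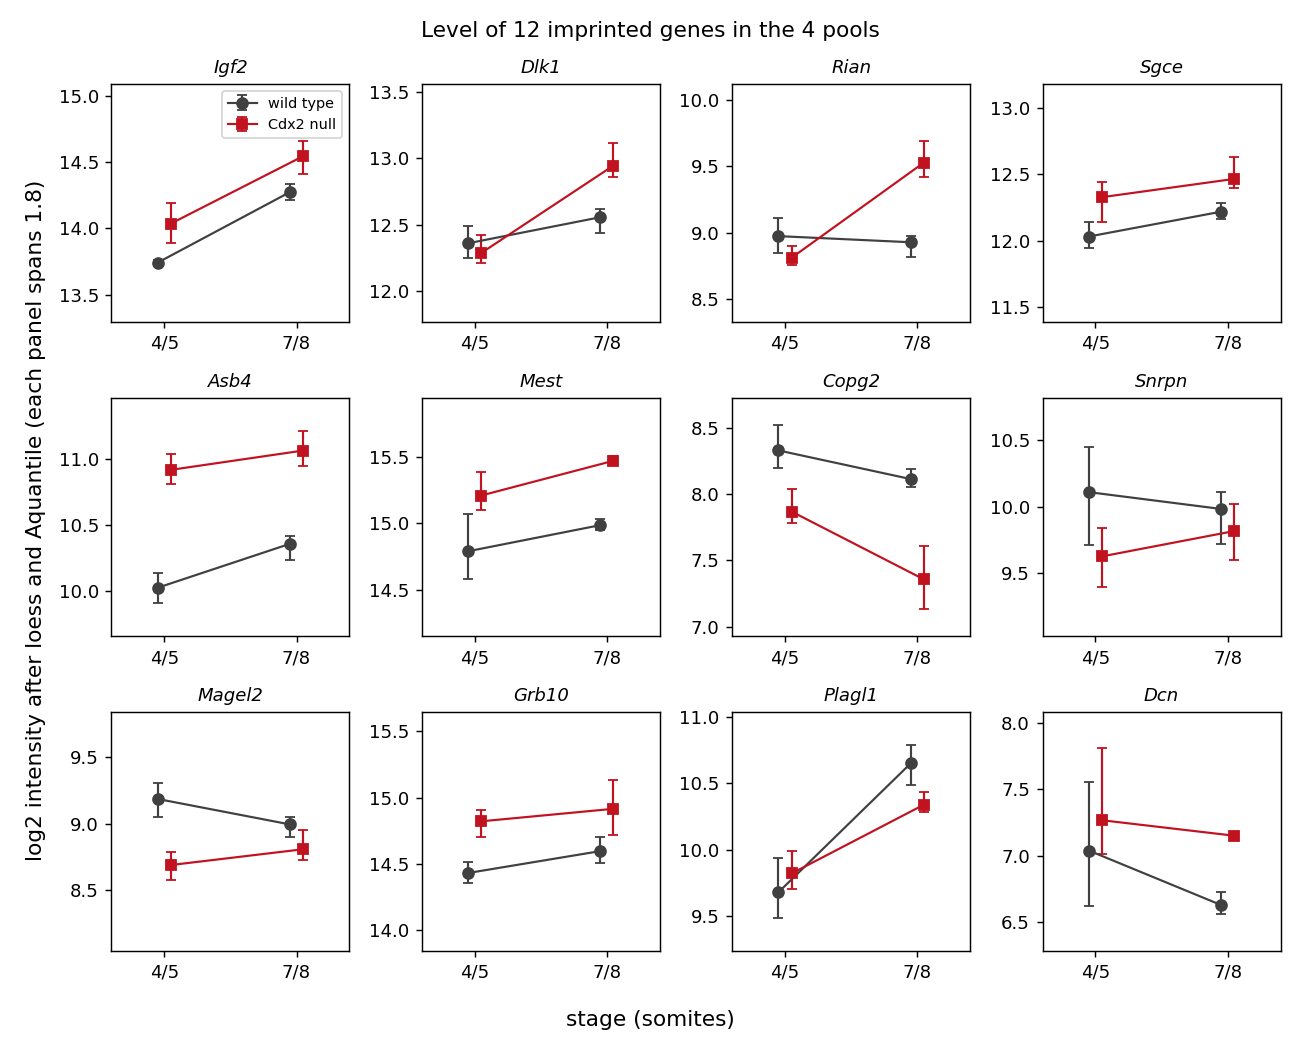
Log2 intensity (y axis, every panel spanning 1.8) of the 12 imprinted genes described in full, at 4/5 and 7/8 somites (x axis) in wild type (grey circles) and Cdx2 null (red squares) pools, as the mean of 4 arrays with bars from the lowest to the highest array. Asb4 and Copg2 keep the genotypes apart at both stages, Dlk1 and Rian separate them at 7/8 somites, and levels are not comparable between panels.

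By the parental copy expressed, the list showed no common direction. Of 21 measured maternally expressed members 3 rose (14.3%) and 1 fell (4.76%), with a median log2 ratio of -0.07. Grb10, among the 3 that rose, was called on its brightest probe alone. Of 17 measured paternally expressed members 3 were called higher (17.6%) and 2 lower (11.8%), with a median of 0.04. Of all genes, 6.46% were called higher and 4.36% lower. The lower paternally expressed members were Magel2 and Snrpn, and the direction of Snrpn was not settled. Both medians were near 0 and changed sign with the setting: the maternal one was 0.022 with median centring, 0.0059 with the mean of all probes and 0.011 with the null pool in Cy5 alone, and the paternal one was -0.018 with the null pool in Cy3 alone. Gnas, whose products differ in the copy expressed, read 0.10.

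The Kcnq1 cluster on chromosome 7 held 8 measured members, and 0 of them were called. They were Cdkn1c, a cyclin-dependent kinase inhibitor (-0.07), Phlda2, which limits placental growth (0.16), and the potassium channel gene Kcnq1 (-0.18). Kcnq1ot1, the noncoding RNA that silences the domain on the paternal copy, read -0.08. Further from the control region, Tssc4 read -0.13, Cd81, a tetraspanin, read 0.02, Osbpl5, an oxysterol-binding protein, read 0.23, and Nap1l4, which assembles nucleosomes, read 0.07. Nap1l4 was negative at 4/5 and positive at 7/8 somites on each of its 3 probes by mean.

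Of the members outside these clusters, 4 more did not pass the test. Nnat, a membrane proteolipid gene, read -0.11, Impact, a regulator of translation, read 0.10, Inpp5f, an inositol phosphatase, read 0.07, and Gatm, an enzyme of creatine synthesis, read -0.09. The 27 measured members that were not called and passed no size rule, H19 and Peg3 among them, had means over both stages between -0.25 and 0.26. Their stage means reached -0.40 (Ube3a at 7/8 somites) and 0.30 (Gnas at 7/8 somites).

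Among other imprinted genes, 19 of a list of 35 were measured, and 3 rose and 1 fell. Of all genes, 6.46% were called higher and 4.36% were called lower. Dio3, the deiodinase at the far end of the Dlk1 cluster, fell by 0.86 on the log2 scale (limma, adjusted p = 1.95e-05). Sfmbt2, a Polycomb-related gene, rose by 0.51, Pon2, a paraoxonase gene next to the Peg10 cluster, by 0.39 and Slc22a18, a transporter gene of the Kcnq1 cluster, by 0.34.

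Of 17 measured genes that maintain imprints or DNA methylation, 4 rose and 0 fell, where 6.46% of all genes were called higher and 4.36% lower. Dppa3, which protects maternal methylation in the early embryo and marks germ cells, rose by 0.84 (limma, adjusted p = 9.09e-07). Smchd1, Tet3 and Ehmt1, regulators of chromatin, rose by 0.41, 0.33 and 0.32. Zfp57 read -0.11, and Dnmt1, the maintenance methyltransferase, read 0.05, both named outside the rule after their values were seen. Of 17 genes of the IGF pathway, Igfbp1 rose by 0.42 and Igfbp2 and Akt2 fell by 0.40 and 0.29. The shares of all genes to set beside this list are the same.

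Markers of neighbouring tissues moved in the same pools, where 6.46% of all genes were called higher and 4.36% lower. These lists were chosen with earlier results of these data known, so their counts are no independent evidence on a tissue. Of 13 visceral endoderm markers 6 rose and 0 fell, led by Cubn (1.18), Amn (0.97) and Apoe (0.96). Hnf4a (-0.03), Trf (-0.0032), Rbp4 (0.09) and Ttr (0.15) did not pass the test, and Afp read 0.48 at 4/5 and -0.82 at 7/8 somites, lower by the 1.5-fold rule at the later stage. Summed levels here are the log2 of the summed intensities of a list, so its brightest genes weigh most. For visceral endoderm the summed level was 15.31 to 15.40 in wild type and 15.96 to 16.00 in null arrays at 4/5 somites. Of 10 listed allantois markers 7 were measured, and Tbx4 and Vcam1 were not among them. Of the 7, 4 rose, Snai2 (1.27), Ahnak (0.80), Col1a1 (0.61) and Postn (0.44), and 1 fell, Bmp4 at -0.49. Itga4 (0.23) and Pitx1 (-0.21) did not pass the test. The summed level of the allantois list was 12.58 to 12.79 in wild type and 13.08 to 13.23 in null arrays at 4/5 somites. Of 11 listed trophoblast and placenta markers 7 were measured. Of these, 4 rose, with Prl4a1 at 1.37, and 1 fell, Plac1 at -0.33. Hand1 (0.27) and Tfap2c (0.25) did not pass the test. Summed levels of that list at 4/5 somites were 11.38 to 11.43 in wild type and 11.67 to 11.79 in null arrays. Somite markers rose in 4 of 6 measured (9 listed), with Dmrt2 at 1.05, while Foxc1 (0.21) and Uncx (-0.03) did not pass the test. The summed level of the somite list was 11.57 to 11.64 in wild type and 12.41 to 12.53 in null arrays at 4/5 somites.

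At 7/8 somites the summed levels of wild type and null arrays were 14.68 to 14.72 and 15.19 to 15.28 for visceral endoderm, 13.06 to 13.15 and 13.46 to 13.57 for allantois. They were 11.31 to 11.47 and 11.87 to 11.95 for trophoblast, and 11.80 to 11.90 and 12.04 to 12.08 for somite. Endothelial markers fell in 3 of 9 measured (10 listed), with Etv2 at -1.01, and 1 rose, Flt1 at 0.33. Their summed level was 12.21 to 12.23 in wild type and 11.93 to 12.08 in null arrays at 4/5 somites. At 7/8 somites it was 12.56 to 12.85 and 11.94 to 12.22. Primitive blood markers fell in 1 of 7 measured (10 listed), with Hbb-bh1 at -0.39. The summed level of that list was 10.18 to 10.31 in wild type and 10.03 to 10.10 in null arrays at 4/5 somites. At 7/8 somites it was 12.47 to 12.53 and 12.22 to 12.41. At 4/5 somites Klf1 was well above background on 0 of 4 arrays in either genotype, and Hba-x on 0 of 4 in null and 2 of 4 in wild type. Every other measured marker of these 6 lists was well above background on at least 2 of 4 arrays in each pool, and 45 of the 49 on at least 3 of 4 in each. The part of these tissues in the ratios of Asb4, Mest, Dcn, Igf2, Grb10 and the others was not tested.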

How the data were processed

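The values are spot and local background intensity values, not normalized, from the authors' deposited Agilent scanner files, read per the file headers. The deposited matrix holds a log10 ratio per spot, equal to the scanner's log10 ratio turned to null over wild type at 45018 of 45018 spots on each array. Feature Extraction is version 9.5.3 per the submitters' processing notes and 10.5.1.1 per the file headers.

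Mean signals were corrected with normexp (offset 50; 58 spots with uneven background on 1 array received the array's median) and normalized by loess with limma, version 3.58.1, under R 4.3.3 (files read by data.table, version 1.17.8). All log2 values were computed here from the deposited intensity values. Levels were also scaled by Aquantile. Outlier spots were left out (1184, 0.341%), and a probe was kept if well above background in 1 genotype on at least 3 of 4 arrays of a stage. Per array, 47 to 59.5% of probes were well above background, and the number of arrays limits the precision. The brightest probe stood for a gene. RefSeq accessions named 25257 probes.

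The 4 arrays of a stage were taken as repeats of 1 pair of pools, so each stage gave 1 value per gene. The limma fit (lmFit, eBayes, two-sided, Benjamini-Hochberg over all genes) had 1 residual degree of freedom and a prior of 19 with standard deviation 0.12. Ratios correlated at 0.869 to 0.925 between arrays of a stage where dyes matched and at 0.488 to 0.57 where they were swapped. Tested on simulated data over both stages (15488 genes), the fit recovered 97 of 100 genes changed by 0.5 and 100 of 100 changed by 1 on the log2 scale, but 29 of its 226 calls (12.8%) were false, above the nominal 5%. Within a stage, 1.5-fold size rules stand in for a test. Members were described in full if called or past a size rule, and up to 4 called genes per list were named. Members, clusters and lists were chosen with earlier results of these data known. Other backgrounds, normalizations, filters, probe rules, slides, dye orders and left-out arrays were tried, with each probe as its own row and counts without Snrpn added after seeing the data.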

Additional observations from a re-analysis of the deposited data

Results flagged for a closer look

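In 3 members every array of one stage moved one way and every array of the other stage the opposite way. That difference was not tested, since each stage was taken to have 1 pool per genotype. The log2 ratio at 7/8 minus that at 4/5 somites was 0.45 in H19, 0.46 in Dlk1 and 0.34 in Peg3. One array of Dlk1 at 4/5 somites was at -0.0013. The 12 members described in full gave 24 groups of 4 arrays over the stages. By Dixon's test 0 of them held an array that stood apart, where chance marks about 1 in 20 groups of independent values. The 4 arrays of a group were taken as dye swaps of the same pools and so not as independent. Where ratios split by dye, as in Snrpn, the test can hardly mark an array, so this count is no check of array quality.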

How the results depend on the processing

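Of 9 members called over both stages, 4 were called with uneven backgrounds kept, 4 when dim probes were kept too (28300 genes tested) and 3 when background was not corrected. Leaving out 1 array gave 4 to 8. With the dye swap pairs as 4 values and slide as a replicate block, a fit that counts technical repeats, 11 were called, and Snrpn lost its call (adjusted p = 0.0542). Asb4, Copg2 and Mest kept their calls in 20 of 20 other settings, Grb10 in 17, Dcn in 14, Magel2 and Snrpn in 10, Igf2 in 6 and Sgce in 5. Snrpn turned to 0.047 with the null pool in Cy3 alone. The scanner's processed signals gave 2 members past 1.5-fold at 4/5 and 5 at 7/8 somites, 2 between stages in the ratio, 2 in wild type and 4 in null embryos. Median centring gave 0 in the ratio and 1 in null embryos, and it raised the share of higher calls among all genes from 59.7% to 79.5% (members: 7 up, 1 down). No background correction and the mean of all probes each gave 1 at 7/8 somites, the latter 0 in the ratio. The null pool in Cy5 alone gave 3 at 4/5 somites, 5 in the ratio and 2 in wild type, and slide 2 alone 1 in null embryos. Leaving out 1 array gave 1 to 2 at 4/5 (2 without array 3 of 4/5), 2 to 3 at 7/8, 1 to 2 in the ratio (2 without array 1 of 4/5), 1 in wild type and 2 to 3 in null embryos. The paternal median of 0.04 was 0.10 with processed signals, 0.071 with median centring, -0.018 with Cy3 alone and 0.13 with Cy5 alone, and 0.02 to 0.07 with 1 array left out. The maternal median was -0.07 to -0.04 with 1 array left out. The cause was not tested. Dim probes limit Dcn, Calcr, Peg10, the second probes of Asb4 and Rian, and the dimmer probes of Meg3.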
